A study of Mus musculus with 32 samples.

Results

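Wide H3K27ac clusters are stretches of chromatin in which many H3K27ac peaks lie close together away from transcription start sites (TSS). Here they were built separately for Kat2a WT and Kat2a KO MLL-AF9 leukemia from the R2 library of each genotype. Peaks whose centre lay within 2.5 kb of a GENCODE M21 TSS were dropped, the remaining distal peaks were stitched where the gap was at most 12500 bp, and a stitched region was kept when it held at least 3 peaks that together covered at least 5000 bp. The rule kept 220 of 5345 stitched distal regions in WT and 675 of 8678 in KO. Merging the spans of both genotypes gave 677 loci, of which 210 held a cluster in both genotypes, 464 in KO only and 3 in WT only.

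Leukemias were started from lineage-depleted bone marrow cells of Kat2a Flox/Flox mice, either without Mx1-Cre (WT) or carrying Mx1-Cre+/- (KO). All mice had been given pIpC, which switches on the interferon-driven Mx1-Cre, and in both genotypes the cells were transduced with a retrovirus carrying MLL-AF9 and grown in lethally irradiated recipients. Chromatin came from total bone marrow of animals at the terminal stage of leukemia, with 5 WT and 4 KO animals pooled, so residual host cells were included and spread between leukemias is not contained in any value below. R1 and R2 were separate cell samples and chromatin preparations, and p-values measure only the spread between these libraries. Whether Kat2a was lost cannot be read from peak lists. By quantitative RT-PCR, the paper reported depleted Kat2a expression in primary KO leukemias. Donor mice were 6 to 10 weeks old, and the ages of the recipients are not given in the sources used here.

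H3K27ac is an acetylation mark of active promoters and enhancers. Long stretches of it, often called super-enhancers, are known from many cell types to lie beside genes of cell identity. H3K4me1 marks enhancers whether or not they are active, H3K4me3 marks promoters, and H3K9ac, the modification that the acetyl-transferase Kat2a is best known for, is found at both. MLL-AF9 is a fusion oncogene that blocks myeloid differentiation and keeps a stem and progenitor program running.

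The H3K27ac R2 lists that defined the clusters held 29757 peaks over 19.7 Mb in WT and 46047 peaks over 35.8 Mb in KO. The R1 lists of H3K27ac and of H3K4me1 were not used to describe clusters, because at most 13 of their peaks per list passed a q-value of 0.05. H3K9ac lists held 31677 to 33605 peaks in WT and 27657 to 28861 in KO. No list gives a read count, so depth is unknown, and lists of unequal length are compared below also at equal length.

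A few sequences show what lies under H3K27ac summits of these loci. Each is taken at the peak with the smallest p-value among those of the locus whose window held no exon, which need not be the peak with the highest fold enrichment, and is a 300 bp window on the plus strand of the reference genome, GRCm38.p6, the assembly also called mm10. The first set gives the shared loci with the most covered bases in the genotype that had fewer. The locus on chromosome 8 nearest to Tomm20 has its window at chr8:126832374-126832673, in an intron of a non-coding transcript. The Zfp36l2 locus has it at chr17:84182211-84182510, between genes. The Etv6 window at chr6:134044732-134045031 and the Zmiz1 window at chr14:25516818-25517117 are intronic. The Spi1 window at chr2:91089318-91089617 is shown because the ratio of KO to WT bases was lowest there, and the Cdk6 window at chr5:3382313-3382612 because it belongs to the KO-only cluster with the most covered bases. Both are intronic. Capitals mark matches, on either strand, to letters typical of 6 transcription factor motifs, which were GAGGAAG for PU.1 and other ETS factors, TGTGGT for RUNX, TTNNGCAA for C/EBP, TGANTCA for AP-1, AGATAA for GATA and TGACAG for MEIS.
Tomm20-nearest, WT summit: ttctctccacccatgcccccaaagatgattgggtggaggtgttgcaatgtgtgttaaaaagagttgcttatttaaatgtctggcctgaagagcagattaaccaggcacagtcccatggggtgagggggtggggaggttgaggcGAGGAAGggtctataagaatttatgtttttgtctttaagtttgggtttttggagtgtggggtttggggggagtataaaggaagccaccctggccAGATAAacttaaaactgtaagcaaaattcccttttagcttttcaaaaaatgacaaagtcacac
Zfp36l2, WT summit: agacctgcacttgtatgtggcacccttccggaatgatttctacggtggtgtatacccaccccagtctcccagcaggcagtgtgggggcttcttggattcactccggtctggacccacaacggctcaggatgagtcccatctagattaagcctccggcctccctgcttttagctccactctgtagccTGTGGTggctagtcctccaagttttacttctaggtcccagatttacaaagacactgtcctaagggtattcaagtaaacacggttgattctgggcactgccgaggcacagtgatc
Etv6, WT summit: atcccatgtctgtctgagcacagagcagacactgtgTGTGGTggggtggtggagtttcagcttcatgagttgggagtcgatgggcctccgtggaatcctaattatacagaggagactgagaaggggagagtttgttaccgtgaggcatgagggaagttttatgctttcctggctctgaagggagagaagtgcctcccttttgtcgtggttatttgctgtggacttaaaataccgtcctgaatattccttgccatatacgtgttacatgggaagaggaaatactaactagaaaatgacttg
Zmiz1, WT summit: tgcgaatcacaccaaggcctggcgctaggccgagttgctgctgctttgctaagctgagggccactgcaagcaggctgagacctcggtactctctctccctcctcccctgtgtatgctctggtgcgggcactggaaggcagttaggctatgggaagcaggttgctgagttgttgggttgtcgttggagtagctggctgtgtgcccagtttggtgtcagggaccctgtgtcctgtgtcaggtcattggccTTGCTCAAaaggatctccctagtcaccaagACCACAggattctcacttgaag
Spi1, WT summit: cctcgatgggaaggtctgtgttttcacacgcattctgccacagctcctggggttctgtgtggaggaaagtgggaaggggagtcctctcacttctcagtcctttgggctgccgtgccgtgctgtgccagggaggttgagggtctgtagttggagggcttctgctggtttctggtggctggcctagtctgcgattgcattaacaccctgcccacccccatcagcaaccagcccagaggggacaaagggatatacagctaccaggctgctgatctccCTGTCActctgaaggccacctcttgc
Cdk6 KO-only, KO summit: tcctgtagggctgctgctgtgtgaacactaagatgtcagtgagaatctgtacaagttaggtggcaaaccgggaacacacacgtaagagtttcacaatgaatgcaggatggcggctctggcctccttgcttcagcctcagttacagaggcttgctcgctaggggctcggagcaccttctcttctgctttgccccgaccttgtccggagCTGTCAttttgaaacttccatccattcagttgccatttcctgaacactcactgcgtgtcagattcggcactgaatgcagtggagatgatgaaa
The Tomm20-nearest window held the PU.1 and GATA letters, the Zfp36l2 and Etv6 windows the RUNX letters, the Zmiz1 window the C/EBP and RUNX letters, and the Spi1 and Cdk6 windows the MEIS letters.

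These letters stood in cluster windows and in windows at other distal H3K27ac in shares that differed by at most 1.10 percentage points. In WT, 13.8% of 2094 cluster summit windows held the PU.1 letters, against 14.8% of 10457 windows at other distal peaks, and RUNX letters stood in 23.0% against 24.0%. In KO, PU.1 letters stood in 13.7% of 7162 cluster windows and 14.8% of 16821 others, a difference of -1.06 percentage points (95% interval -2.02 to -0.0982, counting error only), and RUNX letters in 23.6% against 23.8%. The C/EBP letters were found in 10.3% and 11.3% of WT windows and in 11% and 11.8% of KO windows, in clusters and outside them. The AP-1 letters stood in 7.83% of WT cluster windows against 8.93% elsewhere and in 8.84% against 9.40% for KO, and the shares for GATA and MEIS differed between clusters and other distal peaks by at most 0.736 percentage points in either genotype. The interval of the difference left out 0 for PU.1 in KO and included it for all other pairs of letters and genotype, and with 100 bp windows it also left out 0 for AP-1 in WT (-1.33 to -0.0360) and for C/EBP in WT (-1.61 to -0.000414), with a lower share in clusters each time. The median GC content of the windows was 50.3% in WT clusters and 49.0% at other WT distal peaks.

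The clusters were selected on H3K27ac covered length and peak number, and these values are given first, as a description without a test, since 1 library per genotype was used. WT clusters held 2094 of 12551 distal peaks (16.7%) and 1.70 of 7.33 Mb of distal H3K27ac (23.2%). KO clusters held 7162 of 23983 distal peaks (29.9%) and 6.35 of 16.0 Mb (39.7%). A cluster had a median of 9 peaks in both genotypes, with a median covered length of 6554.5 bp and span of 21.2 kb in WT and 7786 bp and 24.4 kb in KO. The smallest clusters kept covered 5040 and 5088 bp in WT and 5007 and 5009 bp in KO, and the largest regions of 3 or more peaks left out covered 4983 and 4978 bp in WT and 4999 and 4992 bp in KO. The cut therefore falls in a continuous range of lengths and not at a gap.

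**Figure D1:**
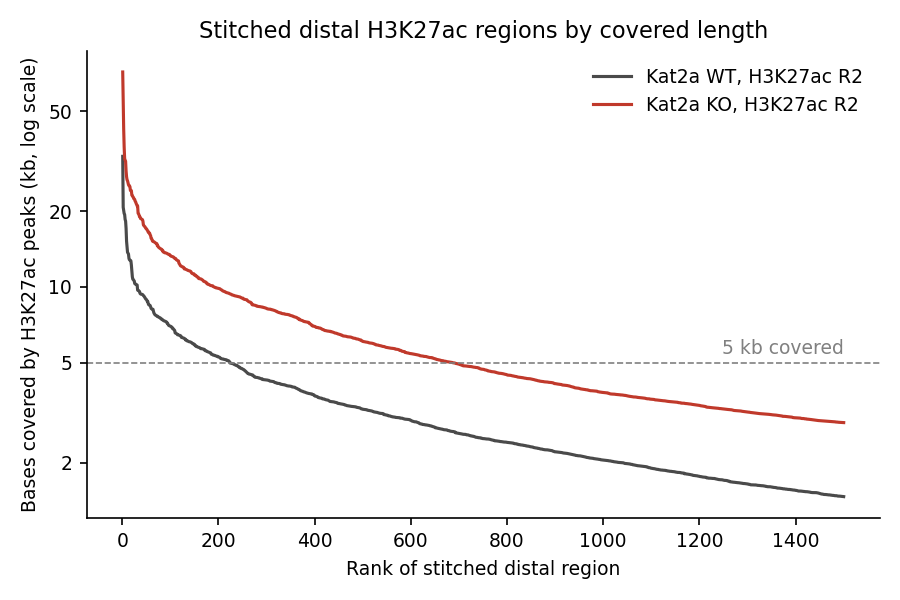
Bases covered by H3K27ac peaks (kb, log scale) in each stitched distal region, against its rank within the genotype, for the R2 libraries of Kat2a WT (grey) and Kat2a KO (red). The KO curve lies above the WT curve at every rank drawn, and the dashed line at 5 kb is the minimum for a wide cluster, which kept 220 regions in WT and 675 in KO.

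How many more clusters KO had depended on how the lists were made equal. With the 29757 strongest peaks of each genotype, KO still had more, 474 against 220. With the strongest peaks up to the same total length of H3K27ac, the order turned, with 150 clusters in KO and 220 in WT. The larger number of KO clusters can therefore not be told apart from the longer KO list, and read depth, which could differ between the libraries, is unknown.

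Nearly every WT cluster had a counterpart in KO. Of the 220 WT clusters, 217 (98.6%, 95% Wilson interval 96.1 to 99.5) overlapped a KO cluster by at least 1 bp, and of the 675 KO clusters, 211 (31.3%, 27.9 to 34.9) overlapped a WT cluster. With lists of equal total length the shares were 49.5% of WT and 74.0% of KO clusters. All 31 WT clusters that covered at least 10000 bp were shared with a KO cluster of any size, as were 131 of 190 KO clusters of that length. Of the 464 KO-only clusters, 463 contained at least 1 WT distal peak, and their median covered length was 6672.5 bp in KO and 3231.5 bp in WT. KO-only clusters were thus nearly all places where WT also had H3K27ac peaks, with a median length below the minimum. At some of them, among them the widest ones named below, the WT bases added up to more than the minimum, to at most 8307 bp. No single stitched WT region met the rule there.

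The widest KO cluster covered 71494 bp with 75 peaks over 204 kb of Etv6, which encodes an ETS family repressor needed by blood stem cells, from upstream of its TSS through most of the gene. In WT the same stretch held 25373 bp of distal H3K27ac, and 2 clusters of 12760 and 5314 bp inside the gene. Peaks of H3K9ac and H3K4me3 lay at the start of the gene in all libraries, and over the whole locus H3K9ac covered 21% and 37.3% of the H3K27ac bases in WT and 18.4% and 30.1% in KO. The genotypes overlapped.

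**Figure D2:**
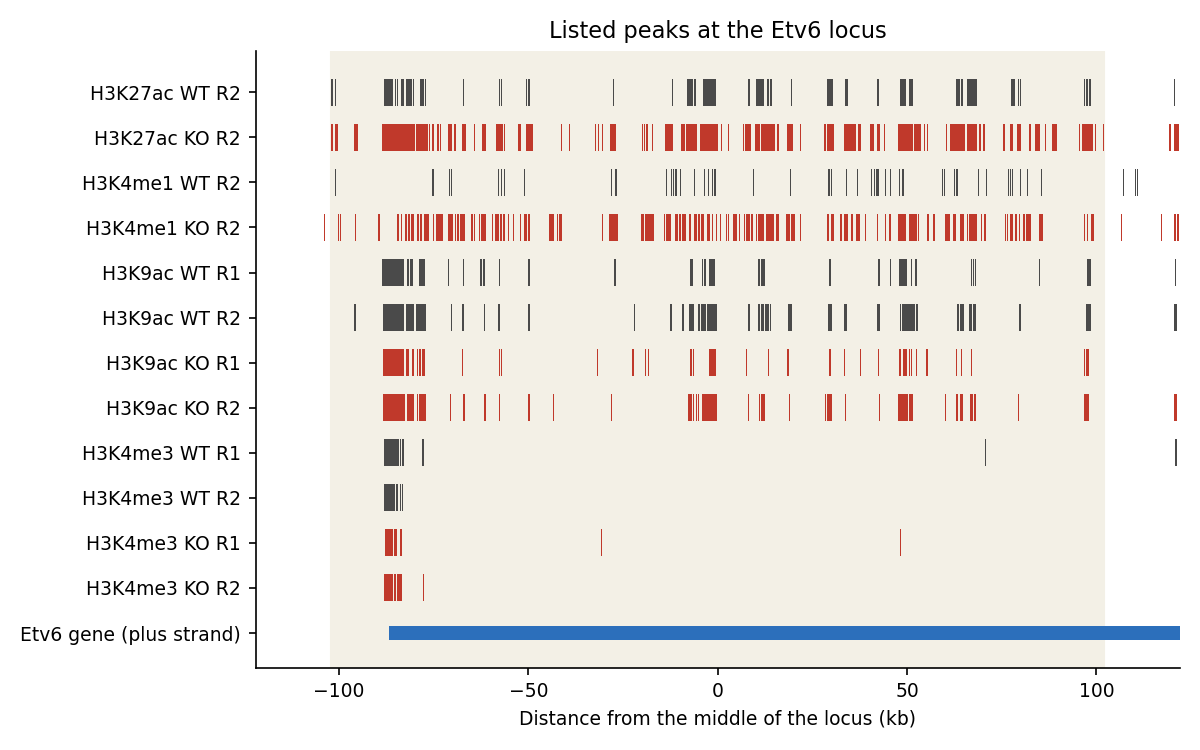
Peaks listed in each library at the Etv6 locus, drawn to scale against distance in kb from the middle of the locus, with WT in grey, KO in red, the span of the locus shaded and the gene body in blue. H3K27ac, H3K4me1 and H3K9ac peaks are spread over the gene in both genotypes with more KO bases for H3K27ac and H3K4me1, while H3K4me3 peaks are nearly all at the start of the gene.

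The widest WT cluster covered 33037 bp with 31 peaks over 99.8 kb of chromosome 8, in a stretch without protein-coding genes. The nearest protein-coding TSS, 43782 bp away, is that of Tomm20, a subunit of the mitochondrial import receptor. Between it and Irf2bp2, which encodes a transcriptional co-repressor, and at Irf2bp2 itself lie 4 more loci, of which 2 were shared and 2 KO-only. The merged Tomm20-nearest locus held 34952 bp of H3K27ac in WT and 53979 bp in KO. H3K9ac covered 26.7% and 51.3% of it in WT and 26.7% and 44.1% in KO, so the replicates differed more than the genotypes.

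Several wide clusters lay at genes of transcription factors of stem and progenitor cells, with genes assigned by position only. Erg, an ETS factor of blood stem cells, held 18267 bp in WT and 35984 bp in KO. Ikzf2, which encodes the zinc finger factor Helios, held 18541 and 31585 bp. Both loci were shared, and in both the KO library covered the larger length. At Ikzf2 the H3K9ac share was 79.4% and 79.9% in WT and 62.6% and 74.5% in KO, lower in both KO libraries, and at Erg it was 49.7% and 65.0% in WT and 43.1% and 50.5% in KO, where the genotypes overlapped.

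Cdk6, a cell cycle kinase that is a known target of MLL fusions, had a shared cluster of 19573 bp in WT and 27407 bp in KO. A second, KO-only cluster lay in the same gene, closer to its start, with 22835 bp in KO and 6161 bp of H3K27ac in WT. It was the widest of all KO-only clusters. The H3K9ac share at this second cluster was 26.6% and 45.1% in WT and 17.9% and 29.1% in KO, and the genotypes overlapped.

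The other widest WT clusters, by nearest gene, were those of Zfp36l2, which encodes an mRNA decay factor (20725 bp), Tmem189 (20103 bp), Akap13 (19393 bp), Ddit4, an inhibitor of mTORC1 signalling (17072 bp), Tnfrsf1b, a receptor of tumor necrosis factor (15183 bp), and Baz2b (14429 bp). The cluster nearest to Tmem189 lay 50175 bp from a TSS of that gene, and its KO counterpart lay within 50 kb of Cebpb, which encodes the myeloid factor C/EBP-beta. The other widest KO clusters were at Zfp36l2 (42477 bp), Zfp217 (32355 bp), Zmiz1, a transcriptional co-activator (31896 bp), Lrrfip1 (28913 bp) and Coro2a (26661 bp). After the Cdk6 cluster, the widest KO-only cluster lay at Cxcr4, the receptor that holds blood cells in the bone marrow. It had 20992 bp in KO and 7612 bp of H3K27ac in WT. Cxcr4 was also the nearest gene, at 112188 bp, of a shared cluster with 7351 bp in WT. The next KO-only clusters lay at Syk, a tyrosine kinase of immune receptors (19601 and 7626 bp), and Elf1, an ETS factor (17048 and 5414 bp). Then came Aff1, an MLL fusion partner in other leukemias (16508 and 5678 bp).

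At 203 of the 210 shared loci KO had more H3K27ac-covered bases than WT. Bases were counted over the merged span of both genotypes, which a longer KO cluster extends. Within the spans of WT clusters alone KO still had more bases at most, but further shared clusters had fewer. The median ratio of KO to WT was 1.55, with a range from 0.612 to 3.16, and over all distal H3K27ac the ratio was 2.18. The rule took shared loci for a large covered length in WT as well, so the lower ratio there is part of how they were chosen. With the 29757 strongest peaks of each genotype the median ratio at shared loci was 1.38, 193 loci had more and 17 fewer bases in KO, and the ratio over all distal H3K27ac was 1.66.

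At 7 shared loci the distal bases were fewer in KO, and for 5 of them this order came from dropping the peaks near a TSS. Spi1, which encodes the myeloid master regulator PU.1, held 8940 bp of distal H3K27ac in WT and 5471 bp in KO, the lowest ratio of all shared loci. With every H3K27ac peak in its span it held 13458 bp in WT and 19187 bp in KO, so KO then covered more. Kcnn4, a potassium channel gene, held 8762 and 5722 bp of distal H3K27ac, and Rara, the retinoic acid receptor alpha, 10901 and 8472 bp. With every peak kept these were 13212 and 14217 bp at Kcnn4 and 16359 and 22957 bp at Rara. The other 4 lay nearest to 6430531B16Rik (6423 and 5656 bp), Jarid2 (8469 and 7771 bp), Plekha2 (9198 and 8722 bp) and Ppara (11580 and 11564 bp). With every peak kept, KO had fewer bases at 2 shared loci, those nearest to Jarid2 and Ppara, where no peak had been dropped. Kcnn4 and these last 4 were named after their values were seen. H3K9ac covered 58.8% and 79.8% of the H3K27ac bases at Spi1 in WT and 57.7% and 72.4% in KO, lower in KO for each replicate number but with overlapping genotypes. The distal peak with the highest fold enrichment at Spi1 reached 9.44-fold in WT and 13.3-fold in KO.

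The 3 WT-only loci lay near Zbtb7a, a repressor needed for myeloid and lymphoid fate decisions, Gnai2, a G protein subunit of chemokine receptor signalling, and Dusp1, a phosphatase that ends MAP kinase signalling. They held 6279, 5642 and 5404 bp in WT and 3589, 4035 and 3059 bp in KO, so H3K27ac was also listed in KO at each. With the peaks near a TSS kept, Zbtb7a still had fewer bases in KO, 4996 bp against 6279 bp in WT, whereas Gnai2 held 8039 bp in WT and 10664 bp in KO and Dusp1 5404 and 5666 bp. For Dusp1 the WT cluster lay 21995 bp from the nearest TSS, and a KO-only cluster of 15112 bp spanned the TSS itself, where WT had 5961 bp.

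**Figure D3:**
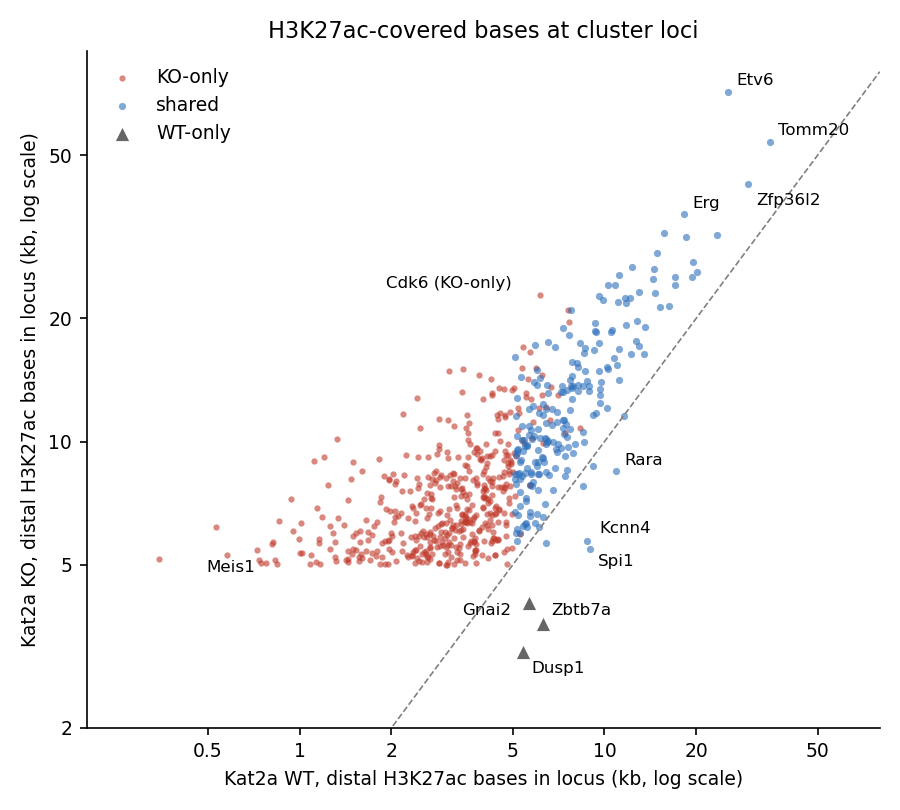
Bases covered by distal H3K27ac peaks in each of the cluster loci (kb, log scales), in Kat2a WT against Kat2a KO, R2 libraries, with 1 point per locus. The dashed line marks equal length, and 1 KO-only locus without WT bases is not drawn. Shared loci (blue) lie above the line except for 7, among them Spi1, Kcnn4 and Rara, and the 3 WT-only loci (triangles) lie below it.

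H3K9ac played no part in choosing the clusters, but it was read over bases and classes of loci that the H3K27ac libraries had set. The share of H3K27ac-covered bases that an H3K9ac peak covered at shared loci was 33.7% and 52.1% in the WT libraries (R1 and R2) and 27.1% and 42.7% in the KO libraries. The KO value was lower in each replicate number, but the R1 value of WT lay between the KO values and the groups overlapped. The mean was 42.9% ± 13.0 in WT and 34.9% ± 11 in KO (SD, n = 2 libraries each), a difference of -8.0 percentage points that was smaller than the spread between replicates (two-sided exact permutation test, p = 0.667, with 0.333 the smallest p that 2 against 2 libraries allow). Without the WT R2 library the difference turned to 1.20 points.

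KO-only loci gave a like picture. Their H3K9ac share was 28.2% and 42.2% in WT and 21.2% and 34.0% in KO, a difference of -7.59 points (p = 0.667, same exact permutation test). At the 3 WT-only loci it was 66.4% and 78.4% in WT and 42.6% and 63.6% in KO, the only class in which the genotypes did not overlap. The difference there was -19.2 points with the smallest p that could be reached, 0.333 in the exact permutation test, and it rests on 3 loci. These loci were chosen for an H3K27ac cluster in WT and none in KO. Nothing about the genotypes is therefore read from their H3K9ac difference. With loci built from equal numbers of H3K27ac peaks the genotypes overlapped in this class too. The shares were then 37.6% and 64.0% in the WT libraries and 31.0% and 50.6% in those of KO, a difference of -9.97 points.

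The lower KO values were not particular to the clusters. At all other distal H3K27ac bases the H3K9ac share was 25.4% and 36.0% in WT and 17.7% and 26.8% in KO, a difference of -8.45 points. Within each library, shared loci exceeded other distal H3K27ac by 8.35 and 16.1 points in WT and by 9.46 and 15.9 points in KO. This excess differed between genotypes by 0.451 points (two-sided exact permutation test, p = 1, n = 2 libraries each), and its sign changed when WT R1 or KO R2 was left out, at -3.44 and -2.79 points. Over the bases that H3K27ac covered in both genotypes, an alternative chosen after seeing the data, the excess was 3.69 and 8.46 points in WT and 6.80 and 11.5 points in KO, and the difference was 3.06 points. The H3K9ac lists as a whole also differed in length, with 26.8 and 28.9 Mb in WT and 20.7 and 24.7 Mb in KO. The part of list length in the lower KO shares was tested only by cutting every library to its 27657 strongest peaks, which left a difference at shared loci of -5.83 points.

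**Figure D4:**
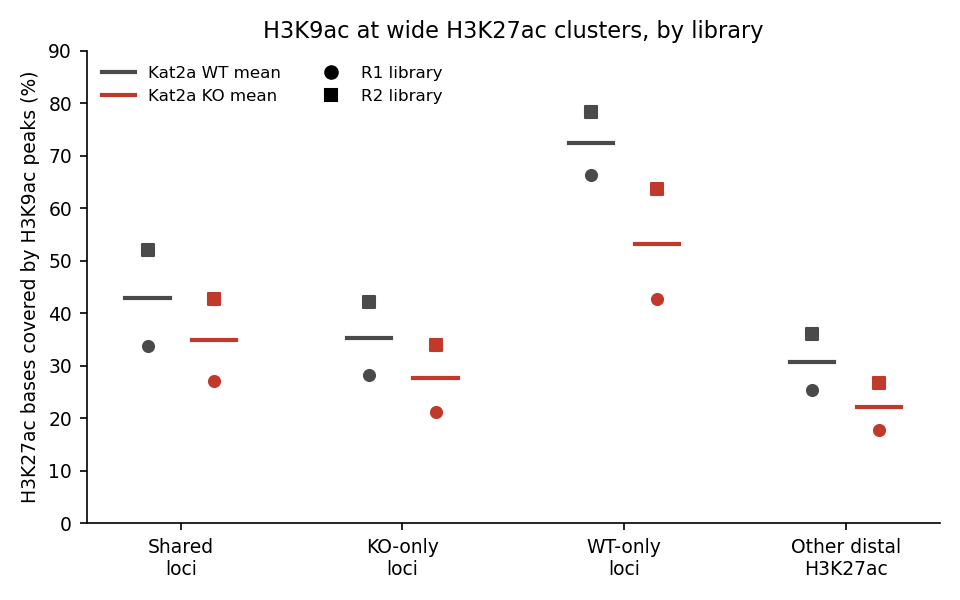
Percent of H3K27ac-covered bases that H3K9ac peaks cover, for shared, KO-only and WT-only loci and for all other distal H3K27ac, with 1 point per library (circles R1, squares R2) and a bar at the mean of the 2 libraries. KO libraries lie lower than the WT library of the same number in every class, R2 lies above R1 in both genotypes, and only at WT-only loci do WT and KO not overlap.

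Locus by locus, the H3K9ac share was lower in both KO libraries than in both WT libraries at 147 of 677 loci (21.7%) and higher in both at 9 (1.33%). Among all stitched distal regions with H3K9ac in a library the same calls were made for 23.7% and 2.81%, so the share called lower lay near the background and the share called higher below it, the latter on 9 loci. By class, 38 of 210 shared, 108 of 464 KO-only and 1 of 3 WT-only loci were lower, and all 9 higher loci were KO-only. The count of lower loci was 553 without WT R1 and 514 without KO R2. That of higher loci was 135 without WT R2 and 97 without KO R1. The share of all regions called moved with these counts, to 65.4% and 49% lower and to 15% and 17.9% higher. With a library left out, a locus is called on 1 library against 2, so neither count can fall. How far the counts rest on single libraries can therefore not be read from the rise alone. The rise was uneven, with 168 lower loci without WT R2 and 159 without KO R1, and 15 higher loci without WT R1 and 15 without KO R2.

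Among the widest clusters, the one nearest to Tmem189 and close to Cebpb had H3K9ac over 44.7% and 60.9% of its H3K27ac bases in WT and 22.4% and 37.9% in KO. Zmiz1 had 37.1% and 50.5% in WT and 28.8% and 33.3% in KO, and the widest Baz2b locus 48.0% and 72.6% in WT and 32.4% and 44.0% in KO. Akap13 had 83.8% and 87.9% in WT and 68.5% and 79.8% in KO. These loci and Ikzf2 were lower in both KO libraries, whereas Etv6, Tomm20, Zfp36l2, Erg, Zfp217, Lrrfip1, Cdk6, Coro2a, Ddit4 and Tnfrsf1b overlapped. Over all stitched distal regions with H3K9ac in a library 23.7% were called lower, and an excess among the widest clusters was not tested. Baz2b, which encodes a bromodomain protein, was the nearest gene of 6 loci, the most of any gene. The locus nearest to Jarid2, a partner of the Polycomb repressive complex, lay 184237 bp from its TSS and went from 43.2% and 78.3% in WT to 13% and 24.2% in KO. At P2ry14, a nucleotide sugar receptor gene, the share was 14.2% and 18.5% in WT and 33.4% and 31.3% in KO. Jarid2 and P2ry14 were named after their values were seen.

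H3K4me1 was listed more often inside clusters than at other distal H3K27ac. In WT 54.6% of cluster peaks overlapped an H3K4me1 R2 peak (95% Wilson interval 52.5 to 56.8), against 42.7% of other distal peaks (41.8 to 43.7). Among KO peaks the corresponding values were 75.7% (74.7 to 76.6) and 66.8% (66.1 to 67.5). Cluster peaks were also wider, with a median of 534 bp against 399 bp in WT and 515 bp against 400 bp in KO, and the part of peak width in this difference was not tested. Peaks of 1 library are not independent replicates, and these intervals cover counting error only.

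By bases, H3K4me1 R2 covered 19.5% of the H3K27ac bases at shared loci in WT and 60.5% in KO, 17.8% and 58.9% at KO-only loci, and 15.2% and 51.2% at other distal H3K27ac. Across the 210 shared loci the KO share ran from 6.23% to 86.7% with a median of 61.7%, and the WT share from 1.30% to 45.4% with a median of 19.4%. The gap between genotypes was thus present in and outside clusters. The KO list covers 42.2 Mb and the WT list 11.5 Mb, and with the 45770 strongest peaks of each genotype the KO share at shared loci was still 52.7%. With 1 library per genotype there is no test.

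H3K4me3 was scarce in the clusters, from which peaks near TSS had been removed. It covered 7.00% and 1.77% of H3K27ac bases at shared loci in WT and 2.66% and 3.60% in KO, a difference of -1.25 points (two-sided exact permutation test, p = 1, n = 2 libraries each). At the median shared locus it was 3.36% in WT R1 and 0% in the other 3 libraries. The Ppara-nearest locus stood apart with 66.7% and 31.1% in WT and 35.7% and 41.1% in KO and with H3K9ac over 74.7% to 96.5% of its bases, although no protein-coding gene lies in its span. It was named after its values were seen.

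By position, 58.8% of the bases of WT cluster peaks and 59.9% of those of KO cluster peaks were intronic, against 52.8% and 54.9% at other distal peaks. A further 38.2% and 36.9% lay between genes. A protein-coding TSS lay inside the span of 62 WT and 217 KO clusters, since only peaks and not spans were kept from TSS. No protein-coding TSS lay within 50 kb of 22 WT and 68 KO clusters.

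Genes near clusters were taken as protein-coding genes with a TSS within 50 kb of a span, which were 461 of 21911 (2.1%) for WT and 1348 (6.15%) for KO. Among genes whose TSS carried H3K4me3 in both replicates of the genotype, the shares were 3.14% of 7951 and 9.02% of 8592. Lists of genes for this tissue were set beside the shares of all protein-coding genes. Of all these genes, 6914 had a distal H3K27ac peak within 50 kb in WT and 9718 in KO. A background of genes with such a peak would be higher and was not used. The lists were chosen with earlier results of these data known, so a share above the background is a description.

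Of 20 myeloid transcription factors, 5 were near a WT cluster and 7 near a KO cluster. Spi1, Cebpb, Rara, Nr4a1 and Zeb2 had one in both genotypes, and Egr1 and Bhlhe40 in KO only. Of 18 stem and progenitor factors, 4 were near a WT cluster (Erg, Runx1, Etv6 and Ikzf2) and 9 near a KO cluster, which added Lmo2, Fli1, Hhex, Ikzf1 and Tcf4. Lmo2, a bridging factor of blood stem cell complexes, had 2 KO clusters with 15416 bp together, where WT had 5050 bp of distal H3K27ac within 50 kb of its TSS. Fli1, an ETS factor, had 1 KO cluster of 13362 bp, where WT had 4960 bp. Both lists thus lay above the share of all protein-coding genes in each genotype. Of the myeloid list, 15 genes had a distal peak within 50 kb in WT and 17 in KO, and of the stem list 14 and 15.

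Of 20 genes that MLL-AF9 is best known for, 2 were near a WT cluster (Cdk6 and Runx2) and 5 near a KO cluster, with Mef2c, Jmjd1c and Mecom added. These shares of 10% and 25% lay above the backgrounds of 2.1% and 6.15%, and 15 of the 20 had no cluster within 50 kb of a TSS in either genotype. At any distance, 3 of the 20 were the nearest gene of a WT cluster and 6 that of a KO cluster. Hoxa7, Hoxa9 and Hoxa10, homeobox genes that the fusion keeps on, share a neighbourhood with 20726 bp of H3K27ac in WT and 24439 bp in KO within 50 kb of their TSS, all of it in peaks that the rule dropped for being close to a TSS. Their lack of a cluster is therefore set by the rule. Meis1, the cofactor of Hoxa9, had 2485 bp of distal H3K27ac within 50 kb of its TSS in WT and 3591 bp in KO. A KO-only cluster of 5031 bp lay at the 3′ end of Meis1, 127369 bp from the TSS, where WT had 843 bp. Myb, a factor that MLL-AF9 leukemias depend on, had 1237 bp in WT and 4326 bp in KO and no cluster within 50 kb of its TSS. The neighbouring gene Ahi1 held a shared cluster of 5348 bp in WT and 8249 bp in KO. Myc had no distal peak within 50 kb in WT and 317 bp in KO.

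Receptors and effector genes of myeloid cells were held in 2 lists. Their shares near a cluster in WT and KO were 25% and 40% for receptors and 5% and 30% for effector genes. The backgrounds were 2.1% and 6.15%, and the WT share of effector genes rests on 1 gene. Of 20 cytokine and chemokine receptors, 5 were near a WT cluster (Il17ra, Cx3cr1, Ccr1, Tnfrsf1a and Tnfrsf1b) and 8 near a KO cluster, with Ccr2, Cxcr4 and Ifngr1 added. Ccr1, a chemokine receptor of monocytes and neutrophils, lay 17438 bp from a WT cluster of 13621 bp and 3105 bp from a KO cluster of 23073 bp. Of 20 granule and effector genes, only Itgb2, the beta chain of leukocyte integrins, was near a WT cluster, of 12690 bp, while 6 were near a KO cluster. The 5 added in KO were Mpo, Itgam, Cd14, S100a8 and S100a9, of which the last pair, encoding the calprotectin subunits of neutrophils and monocytes, share 1 KO cluster of 8932 bp. WT had 1493 bp of H3K27ac in that cluster, and H3K9ac covered 2.74% and 34.5% of it in the WT libraries and 16.0% and 37.7% in those of KO, so the genotypes overlapped there.

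Of 14 AP-1 and other immediate early genes, 3 were near a WT cluster (Fosb, Dusp1 and Zfp36l2) and 7 near a KO cluster, with Fos, Fosl2, Ier3 and Zfp36l1 added. Of 20 genes of acetylation writers, erasers and readers, 2 were near a WT cluster (Hdac4 and Hdac7) and 4 near a KO cluster, with Kat7 and Hdac3 added. In WT and KO the shares were 21.4% and 50% for the immediate early genes and 10% and 20% for the acetylation genes. Both lists lay above the backgrounds of 2.1% and 6.15%, so such an excess was not particular to lists of blood cell genes. Kat2a itself had no cluster within 50 kb of its TSS, where distal H3K27ac was 0 bp in WT and 2675 bp in KO.

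None of the 10 B lymphoid, 10 T lymphoid and 10 erythroid and megakaryocytic markers was near a cluster in either genotype, although 5, 4 and 6 of them had a distal KO H3K27ac peak within 50 kb. At backgrounds of 2.1% and 6.15% a list of 10 genes can be expected to show few or none, so nothing is read from these zeros. Of 73 cytosolic ribosomal protein genes, 0 were near a WT cluster and 4 near a KO cluster (Rpl23, Rpl23a, Rpl5 and Rps3), or 5.48%, close to the background of 6.15%.

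**Figure D5:**
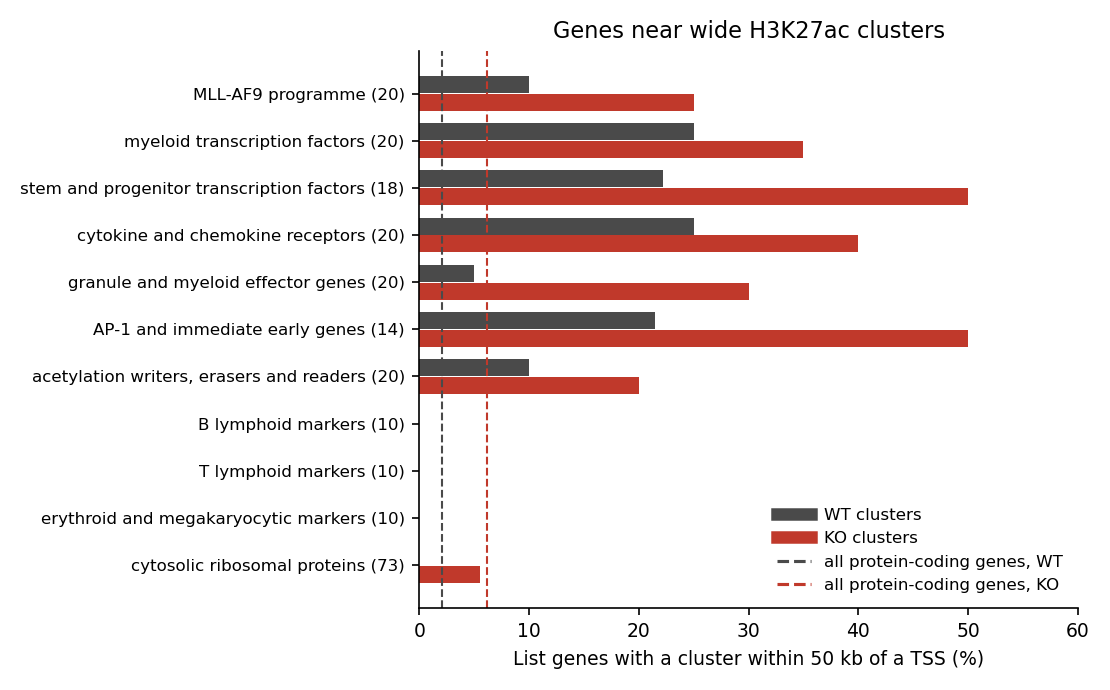
Percent of the genes of each list with a wide cluster within 50 kb of a TSS, for WT (grey) and KO (red) clusters, with the number of genes matched in brackets and dashed lines at the share of all protein-coding genes, 2.1% for WT and 6.15% for KO. The lists of myeloid and stem cell factors, receptors and immediate early genes reach 21.4% to 25% in WT and 35% to 50% in KO, and the lymphoid and erythroid lists are at 0.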

How the data were processed

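The 16 ChIP-seq libraries cover H3K27ac, H3K4me1, H3K9ac and H3K4me3 in Kat2a WT and KO, with R1 and R2 for each. Per the labels and the methods of the study, the authors aligned reads to mm10 with BWA and called peaks per library with MACS2 (versions not given in the sources used here). The deposited lists give each peak's fold enrichment at the summit as a ratio, and 2 columns hold its p-value and q-value as −log10. A score column and the input libraries were not used here. Lists also hold peaks above the q-value of 0.05 named in the methods. All listed peaks were used.

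Clusters were built as described above with Python 3.11.15. Overlaps of at least 1 bp counted, and positions are counted from 1. Interval code was tested on simulated data against bedtools 2.31.1. Shares of H3K27ac-covered bases used the bases of either genotype and were compared by two-sided exact permutation tests over libraries (n = 2 per genotype, smallest p 0.333). Wilson intervals (scipy 1.17.1) cover counting error only. The number of peaks limits precision, since depth is unknown. The H3K27ac R2 lists chose the clusters, so H3K27ac lengths are described without a test.

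The clusters and gene lists were chosen with earlier results of these data known. Named genes are the nearest protein-coding genes of the 10 clusters with the most covered bases per genotype, of the 3 WT-only and the 5 widest KO-only clusters, and list genes with a cluster within 50 kb. Others are said to have been named after their values were seen. Alternatives are given in the closing section.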

Additional observations from a re-analysis of the deposited data

Results flagged for a closer look

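Peaks of the 4 lists that were not used to describe the clusters were counted at the H3K27ac peaks of clusters, since each count was above the 3 that a count of 0 allows. Lists as long as these pass that limit easily, so the number per Mb in and outside clusters is given with each. The H3K27ac R1 list of WT held 145 peaks that overlapped H3K27ac R2 peaks of WT clusters, or 85.3 per Mb, against 73.1 per Mb at other distal R2 peaks and 8.69 per Mb outside any R2 peak. The H3K27ac R1 list of KO held 14 such peaks at KO clusters, or 2.20 per Mb against 1.24 and 0.984. The H3K4me1 R1 lists held 184 in WT, or 108 per Mb against 72.1 and 1.66, and 176 in KO, or 27.7 per Mb against 27.3 and 9.95. No control sample was analysed for these lists. In KO the number per Mb at clusters was close to that at other distal peaks for H3K4me1, and for H3K27ac it rests on 14 peaks.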

How the results depend on the processing

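The number of WT and KO clusters was 130 and 493 with a gap of 5 kb, 298 and 789 with 25 kb, 703 and 1713 with no peak dropped, 318 and 871 with the TSS of protein-coding transcripts only, 187 and 646 at a q-value of at most 0.05, 115 and 512 at 0.001, 220 and 474 with equal numbers of H3K27ac peaks, 220 and 150 with equal covered length, 31 and 190 with at least 10000 bp, and 0 and 0 in the R1 lists. Only equal length put WT above KO. The shared percent of WT and of KO clusters was 93.1% and 23.9% at 5 kb, 98.3% and 36.0% at 25 kb, 99.1% and 39.6% with no peak dropped, 98.1% and 35.1% with protein-coding TSS, 97.4% and 21.5% at q 0.001, 92.7% and 42.6% at equal number, 49.5% and 74.0% at equal length, and 96.8% and 15.3% where both clusters had to reach 10000 bp. An overlap of 50% of the shorter span gave 98.2% and 31.1%.

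Genes near clusters numbered 208 in WT and 603 in KO by nearest gene only, and 818 and 2253 within 100 kb. H3K4me1 shares at shared loci were 0.594% in WT and 0.145% in KO with R1, and 52.7% in KO with equal numbers of peaks. Motif differences between clusters and other distal peaks moved by less than their 95% interval with 100 bp windows, although the intervals for AP-1 and C/EBP in WT then left out 0. Shared loci with fewer bases in KO numbered 2 in place of 7 with the peaks near a TSS kept, an alternative chosen after seeing the data.

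No test of an H3K9ac or H3K4me3 share passed under any setting, as 2 against 2 libraries cannot. Leaving out each library moved the difference from -17.2 to 1.20 points at shared, -14.6 to -0.601 at KO-only and -29.7 to -8.75 at WT-only loci, from -3.44 to 4.35 for shared minus other distal, and from -3.87 to 1.36 for H3K4me3. It was -8.03 with H3K9ac peaks at a q-value of at most 0.05, -5.83 with equal numbers of H3K9ac peaks, -8.51 with equal numbers of H3K27ac peaks and -9.84 over bases with H3K27ac in both genotypes, an alternative chosen after seeing the data. At WT-only loci the genotypes overlapped with equal numbers of H3K27ac peaks, at -9.97 points. Loci lower in KO numbered 159 to 553 and higher 15 to 135 with each library left out (background 29.1% to 65.4% and 6.24% to 17.9%), 142 and 7 at a q-value of at most 0.05 (22.8% and 2.74%), 114 and 18 with equal numbers of H3K9ac peaks (19.2% and 4.1%), and 89 and 5 with equal numbers of H3K27ac peaks (23.4% and 2.86%).

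R1 and R2 are numbers in the labels that are not said to mark a shared batch. As a replicate block, the exact sign-flip permutation test gave p = 0.5, the smallest it allows with 2 pairs, for the H3K9ac difference of -8.0 points at shared loci, and p = 1 for shared minus other distal at 0.451 points and for H3K4me3 at -1.25 points. Deviations of same-numbered H3K9ac libraries correlated over the 677 loci with r = 0.398, a description over loci that share libraries.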
